A study of Mus musculus with 2 samples.

Results

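Among single cells of the mouse retinal pigment epithelium (RPE), 576 cells stood out by a high summed level of 6 genes, Serpine3, Wfikkn2, Htr3a, Ramp2, Upk3b and Ggt1, and are called Serpine3/Wfikkn2/Htr3a-high cells here. They came from 4072 cells that met all quality limits, out of 5838 deposited cells. R1 gave 309 of 2127 kept cells and R2 267 of 1945. Kept cells had at least 500 genes, at most 5% mitochondrial UMIs, at least 5% of UMIs from Ttr and at least 5000 UMIs. UMIs are unique molecular identifiers, which count captured transcripts and not amplified copies. The score was the summed UMIs per 10000 of the 6 genes, and the top 15% of each mouse were taken. Cells that were also in the top 15% of the summed level of Igfbp2, Sostdc1, Sfrp5, Pon1 and Cldn10 were left out, which removed 10 cells of R1 and 25 of R2. The remaining 3496 kept cells, 1818 of R1 and 1678 of R2, are called other kept cells.

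Both mice were male C57BL/6J animals of a single condition, labelled as 4 to 5 weeks old and given as postnatal day 36 in the study's methods. Each mouse is 1 library of the 10x Genomics droplet platform that holds RPE cells of both its eyes, and the place of a cell in the eye is unknown. R1 held 2844 cells with 26034378 UMIs and R2 2994 cells with 29732969 UMIs. Of the 12 cell barcodes that occurred in both libraries, 7 belonged to kept cells in both mice and 0 to Serpine3/Wfikkn2/Htr3a-high cells in both mice.

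The RPE is a pigmented epithelium between the photoreceptors and the choroid that regenerates visual chromophore, takes up shed outer segments and carries ions and nutrients. The 6 score genes have little known function in common. Wfikkn2 encodes a secreted antagonist of growth and differentiation factors of the TGF-beta family, Htr3a a subunit of a serotonin-gated ion channel, and Ramp2 a partner of the receptor for adrenomedullin. Upk3b encodes a uroplakin, Ggt1 a gamma-glutamyl transferase of glutathione breakdown, and Serpine3 a member of the serpin family. Bone morphogenetic proteins (BMPs) act in the eye through SMAD proteins and induce the Id genes, whose products block basic helix-loop-helix transcription factors, while noggin, the product of Nog, binds BMPs outside the cell.

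The score is a continuous range, and its limit does not mark a separate type. In R1 the limit was 15.6 UMIs per 10000, with cells of 15.65 just above and 15.63 just below it. In R2 the limit was 15.1, with 15.15 just above and 15.09 just below. Within 10% of the limit lay 69 cells below and 49 members above it in R1, and 98 and 58 in R2. Ramp2 was the largest term of the score in 66.0% of the members of R1 and 67.0% of those of R2, and Serpine3 in 14.9% and 18.0%. A UMI of Serpine3 was found in 36.6% and 42.3% of members, against 9.96% and 9.54% of other kept cells, which were deeper. As the rule requires, the score genes were higher in members. Serpine3 was at 6.82 in members and 0.111 UMIs per 10000 in other kept cells of R1 and at 6.52 and 0.196 in R2, and Ramp2 at 10.7 and 3.33, and 10.7 and 4.33. These values chose the cells and support no difference.

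Each score gene was also read in the top 15% of cells by the other 5 genes, again without the top 15% of the Igfbp2 score. Cells left out in this way counted among the others. The 6 genes were listed as markers of the same cells, so these values are a description. Serpine3 was 5.10 UMIs per 10000 in the chosen cells and 0.286 in the others of R1, and 4.96 against 0.293 in R2. Upk3b was 8.03 and 4.04 times higher in the chosen cells, Wfikkn2 3.63 and 2.24 times, Htr3a 3.55 and 2.45 times, Ggt1 2.76 and 1.89 times and Ramp2 2.25 and 1.43 times.

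All 309 and 267 members carried at least 3 of 8 RPE markers, as did all 1818 and 1678 other kept cells. Cells had been chosen for Ttr, and ambient RNA was not removed. The summed level of these markers was 375 UMIs per 10000 in members and 410 in other kept cells of R1, and 418 against 453 in R2, led by Rgr, an RPE opsin, at 192 and 206, and 220 and 238. Best1 had 0 UMIs in the members of R1. Microglia and macrophage markers summed to 7 and 2 UMIs in the members of R1 and R2, fibroblast markers to 2 and 3, rod markers to 15 and 8, endothelial markers to 26 and 38 and pericyte markers to 75 and 94, and no member held 3 markers of any of these lists. Per 10000 UMIs, the microglia and macrophage markers were at 0.0244 in members and 0.175 in other kept cells of R1 and at 0.00721 and 0.0583 in R2. C1qc of that list was not called in the main comparison below but was called lower under 5 of its 13 other settings. At least 3 choroidal melanocyte markers were found in 35 members of R1 (11.3%, against 7.76% of other kept cells) and in 15 of R2 (5.62% against 3.93%). Cone markers summed to 78 and 61 UMIs, of which Gnat2 gave 76 and 59. The Muller glia list was led by Apoe, which RPE cells express, with Slc1a3 and Aqp4 at 0 UMIs in members, while Vim and Dkk3 of that list were called higher in the comparison below. The ciliary and iris epithelium list summed to 104 and 71 UMIs, a level of 0.363 against 0.302 in other kept cells of R1 and 0.256 against 0.262 in R2, with Zic2, Zic4 and Penk at 0 in members and Pax6 called higher below. Pax3, which marks melanocytes of neural crest origin, had 0 UMIs in members and in other kept cells. The sum of the choroidal melanocyte markers was 4.65 in members against 2.79 UMIs per 10000 in other kept cells of R1 and 2.97 against 2.04 in R2, with Mlana giving the most UMIs. Mlana and Pmel, pigment genes that RPE cells also express, were called higher below, and Kit, at 0.112 and 0.115 in R1 and 0.0469 and 0.0825 in R2, was not called. The part of other cell types in these values was not tested.

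Members had fewer UMIs and genes per cell than other kept cells. Their median was 8614 UMIs against 10383.5 in R1 and 9149 against 12548 in R2, from 2134 against 2413 genes and 1986 against 2416 genes. After every cell was thinned to 5000 UMIs, the medians were 1588 against 1619 genes and 1461 against 1518. Mitochondrial transcripts took 1.43% against 1.19% of a median cell's UMIs in R1 and 1.41% against 1.198% in R2, and Ttr 11.2% against 11.2% and 13.1% against 12.7%. With 2 mice, an exact two-sided permutation test of paired values cannot go below p = 0.5, so these medians were not tested.

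The question of the main comparison was which genes outside the score differed between members and other kept cells. Cells of 1 mouse are not replicates, so the UMIs of each group were summed within each mouse, and the 4 sums were compared by edgeR's quasi-likelihood test, in which the mouse entered as a block and p-values were adjusted after Benjamini and Hochberg across the whole table. Levels below are UMIs per 10000 of these sums, and fold changes are edgeR's log2 fold changes with the standard error (SE), n = 2 mice. The 11 genes of the selection rule were not tested. Of 11398 genes, 268 had an adjusted p under 0.05 and are referred to as called, which is 2.35% of the genes tested. Of these, 184 were higher in members (1.61% of the genes tested) and 84 lower (0.737%). Counts by gene list below are to be read beside these shares. The direction was the same in both mice for 267 genes, and the exception was the gene model Gm42418, singled out after its values were seen. Most changes were small, with a median size of 0.51 on the log2 scale. Among called genes 36 exceeded a log2 fold change of 1 and 18 were under -1, some of them with few UMIs. DESeq2 called 64 genes, all among the 268, and edgeR without the mouse as a block called 13.

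**Figure D1:**
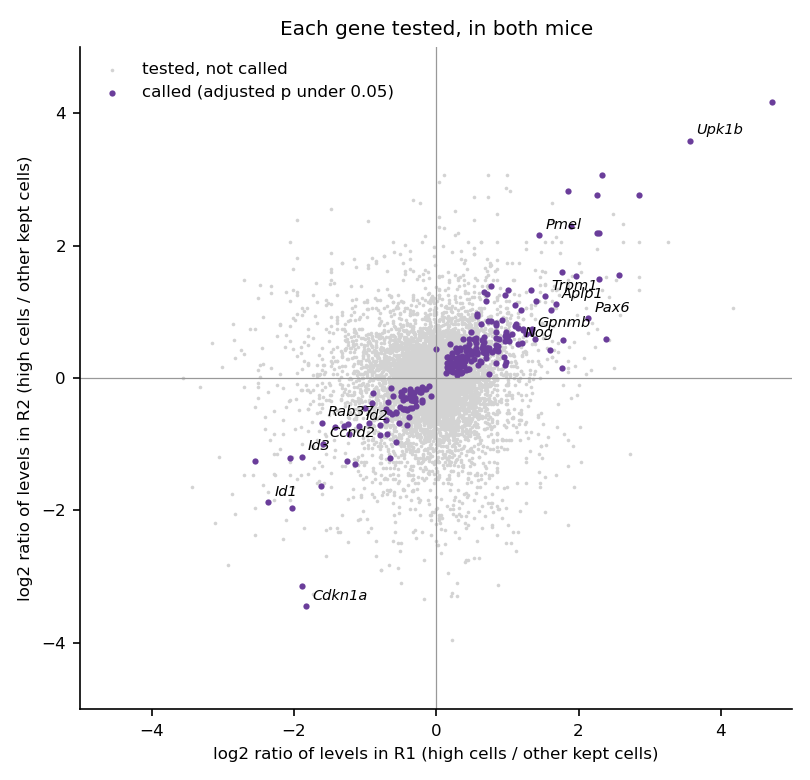
Log2 ratio of the level in Serpine3/Wfikkn2/Htr3a-high cells to that in other kept cells, R1 on the x axis and R2 on the y axis, 1 point for each of the 11209 tested genes with UMIs in all 4 sums. Purple points are genes with an adjusted p under 0.05. They lie in the upper right and lower left of the plot, except Gm42418 (0.993-fold in R1 and 1.35-fold in R2). Among them are Id1, Id3 and Cdkn1a, lower in members, and Upk1b and Pmel, higher in members.

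Of the Id genes, which BMPs induce, Id1, Id2 and Id3 were lower in members and are referred to as the 3 Id genes. Id4 was near the floor in members, at 0.00933 in those with a Serpine3 UMI and 0.0278 in those without in R1, and at 0 and 0.00641 in R2. Its level in other kept cells is not given here, so no direction is stated for it. Of the 34 genes on the list of the BMP and TGF-beta pathway, 23 were tested, and Id1, Id2 and Id3 were called lower, Nog higher and the other 19 not at all. The selection rule itself chose for Wfikkn2 and against a sum that holds Sostdc1, so neither gene was tested. Sostdc1 was at 7.03 in members and 8.41 in other kept cells of R1, and at 6.88 and 8.05 in R2, as means over cells. The median log2 fold change of the 23 genes was -0.19, against 0.00 (-0.003) for all genes tested. Id1 was at 0.118 in members and 0.609 in other kept cells of R1, and at 0.144 and 0.530 in R2. The genes lie at chr2:152736251-152737410 (Id1), chr4:136143497-136145755 (Id3), chr12:25093799-25097140 (Id2) and chr11:89300638-89302332 (Nog) of GRCm38. For Id1, both members' sums lay well below both sums of other cells, and the log2 fold change was -2.10 (SE 0.17, adjusted p = 4.2e-12 by edgeR), a 4.27-fold lower level.

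Id3 was at 0.711 and 2.64 in R1 and at 0.649 and 1.48 in R2. Its log2 fold change was -1.55 (SE 0.10, adjusted p = 1.6e-15, edgeR). Id2, the most abundant of the 3, was at 2.37 and 5.02 in R1 and at 2.34 and 3.88 in R2, a log2 fold change of -0.89 (SE 0.06, adjusted p = 4.8e-14, edgeR). For Id2 and Id3 the members of both mice were close to each other, and the mice differed mainly in their other kept cells.

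Nog moved the other way. It was at 3.94 in members and 1.77 in other kept cells of R1 and at 3.89 and 2.71 in R2, a log2 fold change of 0.85 (SE 0.08, adjusted p = 2.9e-11, edgeR). The members were the highest groups in both mice. The ligand genes Bmp2, Bmp4 and Bmp7 did not pass the test. Bmp4 was at 2.41 and 2.89 in R1 and at 2.03 and 2.32 in R2 (adjusted p = 0.069, edgeR), Bmp2 at 0.781 and 0.733, and 0.649 and 0.789, and Bmp7 at 0.906 and 0.711, and 0.653 and 0.666. The inhibitory Smad7, another BMP and TGF-beta target, was at 0.0593 and 0.121, and 0.0793 and 0.108 (adjusted p = 0.32, edgeR). Over 13 other settings of cells, scaling and test, which leave out a depth-matched setting and one of shallower cells added later, the 3 Id genes were called under all 13 and Nog under 11, the exceptions being DESeq2 and the fit without the mouse as a block. The added settings, of which the shallower cells did not call Id1, are described at the end.

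All kept cells were also cut into 5 bins of equal size by their score. From the lowest to the highest bin, Id1 went from 0.947 to 0.129 in R1 and, in R2, from 0.891 to 0.165, and Id3 from 4.12 to 0.760 and from 2.23 to 0.781. Id2 went from 6.49 to 2.51 and from 4.73 to 2.51. Nog went from 0.918 to 3.78 in R1 and from 1.69 to 3.76 in the other mouse. The levels already differed between the lower bins, which hold no members. The highest bin holds the members, so its values are not independent of those above, and each mouse was described without a test.

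**Figure D2:**
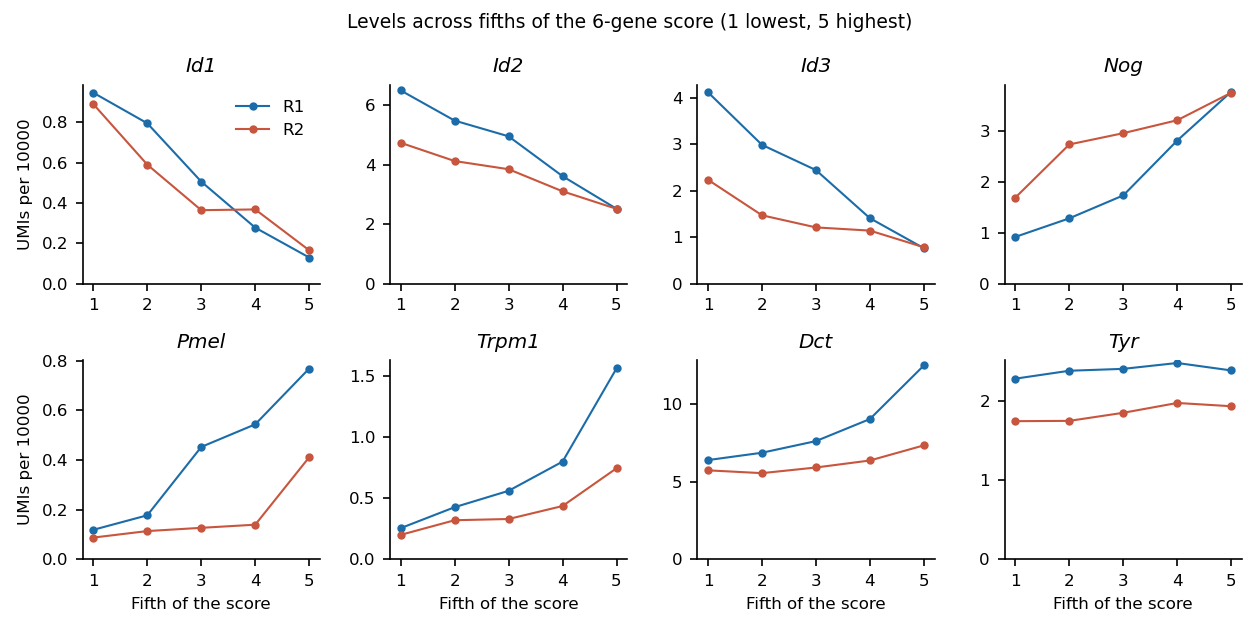
Level (UMIs per 10000, y axis from 0) of 8 genes in 5 equal bins of the 6-gene score of all kept cells (x axis, from lowest to highest), 1 line per mouse. Id1, Id2 and Id3 are lowest and Nog, Pmel, Trpm1 and Dct highest in the highest bin of both mice, while Tyr stays between 2.28 and 2.48 in R1.

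Of 16 melanogenesis genes tested, which serve the making of pigment, 7 were called higher and none lower, with a median log2 fold change of 0.40. Across all genes tested, 1.61% were called higher. Pmel, whose product builds the fibrils of the melanosome, was at 0.893 in members and 0.328 in other kept cells of R1 and at 0.537 and 0.121 in R2. Its log2 fold change was 1.77 (SE 0.15, adjusted p = 8.9e-12, edgeR). The 5 members with the most of its UMIs held 28.9% in R1 and 45.0% in R2, and leaving out the 5 highest cells of each group gave 0.635 against 0.258 and 0.296 against 0.0946. Members stayed higher in both mice.

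Trpm1, a cation channel gene of pigment cells and retinal bipolar cells, was at 1.61 and 0.558 in R1 and at 0.800 and 0.340 in R2, a log2 fold change of 1.42 (SE 0.10, adjusted p = 4.8e-14, edgeR). Gpnmb, a relative of Pmel, was at 2.65 and 1.05, and 1.12 and 0.699, with a log2 fold change of 1.07 (SE 0.09). The Gpnmb level of the members of R2 was near that of the other kept cells of R1, so for this gene the mice differed about as much as the groups. Dct and Tyrp1, which encode enzymes of eumelanin synthesis, rose by less. Dct was at 13.1 and 7.65 in R1 and at 7.76 and 5.93 in R2 (log2 fold change 0.61, SE 0.05), and Tyrp1 at 2.38 and 1.52, and 1.60 and 1.16 (0.58). Mlana, a melanosome protein gene, was at 2.95 and 1.76, and 1.77 and 1.29 (0.63, SE 0.07), and Slc45a2, a melanosome transporter gene, at 0.220 and 0.109, and 0.224 and 0.0886 (1.19). Adjusted p-values of these 5 genes ranged from 0.00063 to 1.8e-11 with edgeR.

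Other genes of the same list did not pass the test. Tyr, the rate-limiting enzyme gene of melanin synthesis, was at 2.44 and 2.38 in R1 and at 1.83 and 1.84 in R2, a log2 fold change of 0.04 (adjusted p = 0.91, edgeR). Mitf, the pigment cell transcription factor gene, was at 0.680 and 0.836, and 0.793 and 0.881, a log2 fold change of -0.20 (adjusted p = 0.46). Oca2 and Slc24a5, a pair of melanosome transporter genes, had log2 fold changes of 0.08 and 0.18. The rise was seen in part of the list. At least 7 genes of the list were called higher under 11 of these 13 settings. DESeq2 called 4 of them, the fit without the mouse as a block 0, and the cells under 5000 UMIs also gave 0.

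The bases before the start sites of Trpm1 and Dct are shown because both genes rose with the other pigment genes and both windows hold the letters CATGTG or, on the other strand, CACATG. These letters are the core of the M-box, a form of the E-box CANNTG that pigment cell promoters are known for. The sequences are from RefSeq with the build GRCm38.p6, cover the 250 bases before the start of transcription, are written 5′ to 3′ on the strand of the gene, and carry the matches in capitals. Trpm1 lies on the plus strand, with the window at chr7:64153585-64153834, and Dct on the minus strand, with the window at chr14:118052247-118052496.
Trpm1: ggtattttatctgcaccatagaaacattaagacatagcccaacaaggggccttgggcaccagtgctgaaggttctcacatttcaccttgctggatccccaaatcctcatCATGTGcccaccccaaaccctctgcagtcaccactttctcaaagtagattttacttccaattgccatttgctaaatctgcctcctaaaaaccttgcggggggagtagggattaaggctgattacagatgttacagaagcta
Dct: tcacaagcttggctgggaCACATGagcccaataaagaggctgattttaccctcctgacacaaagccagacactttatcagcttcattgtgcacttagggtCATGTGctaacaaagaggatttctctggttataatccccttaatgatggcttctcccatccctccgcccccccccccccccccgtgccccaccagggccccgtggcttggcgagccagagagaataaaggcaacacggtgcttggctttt
The match in Trpm1 begins at position -141 from the start, and those in Dct at -232 and -150. Of the 32851 windows of this length in the table, 4025 (12.2%) held either form. The 12 melanogenesis genes with an entry had 16 windows, of which 6 held it, and 4 of the 7 called genes, Trpm1, Dct, Tyrp1 and Gpnmb, had 5 windows, of which 3 held it. A match of 6 letters is a description of the sequence and no evidence of binding.

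Among 13 genes tested of the visual cycle, which regenerates the chromophore, 3 were called lower by small amounts, none was called higher and 10 did not pass, and the median log2 fold change was -0.08. Across all genes tested, 0.737% were called lower. Rdh5, a retinol dehydrogenase gene, was at 76.4 in members and 86.5 in other kept cells of R1 and at 84.6 and 94.5 in R2 (log2 fold change -0.15, SE 0.03, adjusted p = 0.00021, edgeR). Lrat, which encodes the enzyme that esterifies retinol, was at 12.6 and 14.5, and 13.9 and 15.3 (-0.15, SE 0.04), and Rgr had a log2 fold change of -0.09 (SE 0.02). Rpe65, the isomerase gene, was at 43.2 and 48.4, and 46.7 and 48.9, and did not pass the test (adjusted p = 0.11, edgeR). These genes are abundant, so small changes could be measured, and Rgr was called under 5 of the 13 settings, Lrat under 9 and Rdh5 under 11. Rpe65, not called in the main comparison, was called lower under 7 of the 13.

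**Figure D3:**
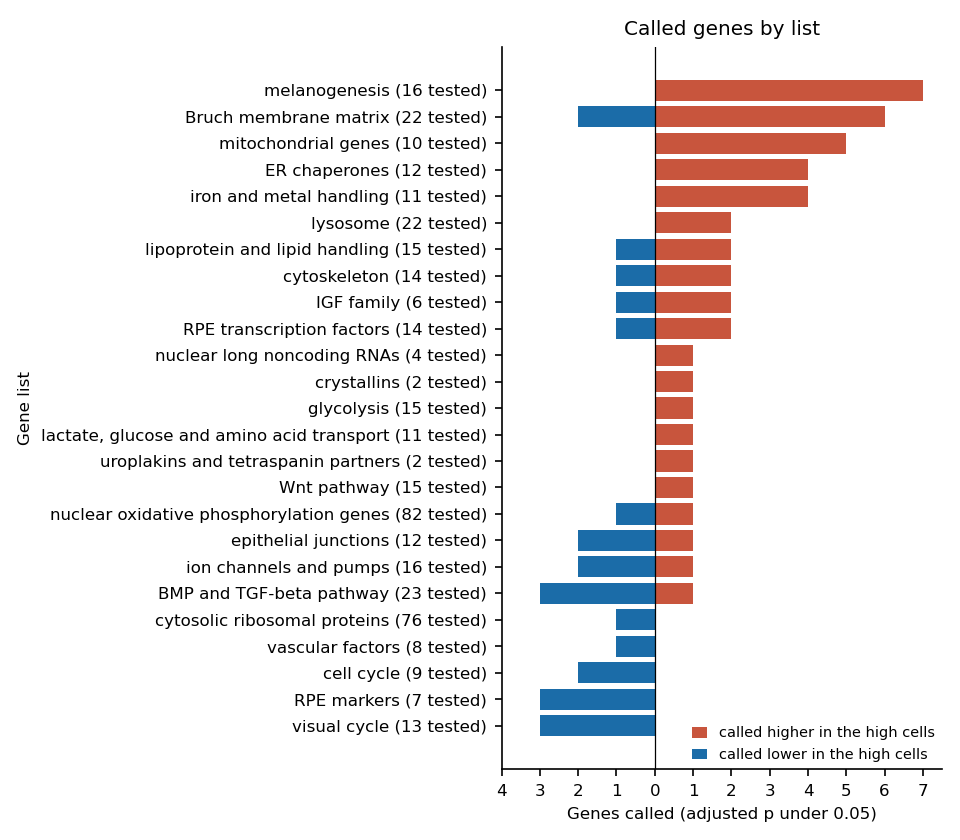
Number of genes called higher (red, to the right) and lower (blue, to the left) in Serpine3/Wfikkn2/Htr3a-high cells, by gene list, with the number of genes tested in brackets and lists without a called gene left out. Melanogenesis has the most genes called higher, 7, and the visual cycle, the RPE markers (the same 3 genes) and the BMP and TGF-beta pathway have 3 called lower each. The bars are counts that do not allow for the length of a list, and 2.35% of all genes tested were called.

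Of 10 transcripts of the mitochondrial genome tested, 5 were called higher and none lower, with a median log2 fold change of 0.30. They were mt-Nd1, mt-Nd2, mt-Nd4 and mt-Nd5 of complex I and mt-Cytb of complex III. With members chosen within bins of UMI count, the log2 fold change of mt-Cytb was 0.13 and that of mt-Nd4 0.14, and mt-Nd2 was not called. mt-Cytb was at 58.9 and 47.7 in R1 and at 58.1 and 47.4 in R2 (log2 fold change 0.32, SE 0.03, adjusted p = 5.1e-11, edgeR), and mt-Nd4 at 42.7 and 34.2, and 37.4 and 30.1 (0.34, SE 0.03). In the cells under 5000 UMIs outside the group, mt-Cytb was at 83.3 and 60.9, above its level in the other kept cells of both mice. Of 82 nuclear oxidative phosphorylation genes tested, Cox8b was called higher and Cox6b2 lower, with a median of 0.05. Across all genes tested the share called was 2.35%, so these calls mark no clear excess on the list. Cox8b, an isoform of a cytochrome c oxidase subunit known from muscle and brown fat, was at 10.5 and 6.32 in R1 and at 4.77 and 2.63 in R2 (0.81, SE 0.05, adjusted p = 4.7e-16, edgeR). The level of R2 members was below that of the other kept cells of R1.

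Of 22 Bruch membrane matrix genes tested, 6 were called higher and 2 lower, with a median log2 fold change of 0.10. Across all genes tested the shares were 1.61% and 0.737%. Thbs4, a thrombospondin gene, was at 1.57 and 0.721 in R1 and at 1.10 and 0.626 in R2 (1.00, SE 0.09, adjusted p = 6.0e-11, edgeR). Its relative Thbs1 went the other way, at 1.53 and 2.14, and 1.55 and 1.86 (-0.35), as did Fbln5, an elastic fibre gene, at 0.377 and 0.651, and 0.397 and 0.716 (-0.80, SE 0.12). Col8a2, a collagen gene of Descemet and Bruch membranes, was at 12.3 and 9.42, and 9.96 and 8.46 (0.33, SE 0.04), and Sparc, Col18a1, Col4a3 and Lamb1 were also higher.

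Among genes for secreted factors, Igfbp5, which encodes an insulin-like growth factor binding protein, was at 3.41 and 1.68 in R1 and at 1.38 and 0.942 in R2 (0.84, SE 0.08, adjusted p = 9.2e-11, edgeR). Igfbp6 was also higher and the ligand gene Igf2 lower, from 22 and 32 UMIs in members, with Igf2 called under 5 of the 13 other settings. Dkk3, of the Dickkopf family, was the only one of 15 Wnt pathway genes called in the main comparison, at 0.335 and 0.133, and 0.169 and 0.0674 (1.35, SE 0.22). Sfrp1 of that list (-0.22, SE 0.07), not called there, was called lower under 6 of the 13 other settings. Across all genes tested, 2.35% were called in the main comparison. Pgf, a vascular growth factor gene, rested on 9 and 8 UMIs in members (-1.60, SE 0.38, adjusted p = 0.0076, edgeR).

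Among 9 cell cycle genes, 2 were called lower, against 0.737% of all genes tested. Ccnd2, a D-type cyclin gene, was at 0.199 and 0.601 in R1 and at 0.256 and 0.509 in R2 (-1.26, SE 0.16, adjusted p = 1.3e-07, edgeR), and Cdkn1a, the gene of a cyclin-dependent kinase inhibitor, had 5 and 2 UMIs in members against 128 and 182 in other kept cells (-2.46, SE 0.51). Of 11 genes of iron and metal handling, the metallothionein genes Mt1, Mt2 and Mt3 and the transferrin gene Trf were higher, by log2 fold changes of 0.17 to 0.24. Trf was at 155 and 126 in R1 but at 123 and 119 in R2, a log2 ratio of 0.30 in R1 and 0.05 in R2. On the list of 12 endoplasmic reticulum chaperone genes, the chaperone genes Calr, Pdia4 and Sdf2l1 and the transcription factor gene Xbp1 were higher, by 0.21 to 0.40. Of the 13 other settings, Pdia4 and Xbp1 were called under 5, Calr under 8 and Sdf2l1 under 10. Apoe, an apolipoprotein gene, was at 161 and 190, and 147 and 169 (-0.19, SE 0.02, adjusted p = 7.7e-08, edgeR).

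Of 16 genes tested of ion channels and pumps, 1 was called higher and 2 lower, of 12 junction genes 1 and 2, and of 14 cytoskeleton genes 2 and 1. Across all genes tested the shares were 1.61% and 0.737%. Kcnj13, a potassium channel gene of the apical RPE membrane, was at 10.2 and 13.2 in R1 and at 10.2 and 11.5 in R2 (-0.25, SE 0.04, adjusted p = 0.00017, edgeR). Slc4a5, a bicarbonate transporter gene, was at 4.92 and 3.50, and 3.85 and 2.93 (0.46, SE 0.05), and Slc12a2, a chloride cotransporter gene, was lower (-0.43, SE 0.10). Of the junction genes, Cdh3, the P-cadherin gene, was higher (0.49, SE 0.07), and Cldn2 and Jam3 were lower (-0.56 and -0.53). Slc12a2 and Cldn2 were each called under 7 of the 13 other settings. Of the cytoskeleton genes, the keratin gene Krt8 was lower (-0.32, SE 0.06), and Vim and Fscn1 were higher (0.45 and 0.60). The log2 ratio of Fscn1 was 0.97 in R1 and 0.19 in R2. Npc2, a lysosomal cholesterol transport gene, was higher (0.20, SE 0.04), with 0.27 in R1 and 0.10 (0.097) in R2, and Cryab, a small heat shock protein gene, was at 14.8 and 11.9, and 13.6 and 11.8 (0.28, SE 0.04). Of 76 cytosolic ribosomal protein genes, 46 were lower and 7 higher in both mice, with a median log2 fold change of -0.08, while Rps3 alone was called, lower. Over all 11398 genes, 3503 were lower and 2849 higher in both mice.

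Of 14 RPE transcription factor genes, 2 were called higher and 1 lower, against 1.61% and 0.737% of all genes tested. Myrf, which encodes a membrane-bound transcription factor, was at 3.38 and 2.13 in R1 and at 2.81 and 2.13 in R2 (0.55, SE 0.06, adjusted p = 3.0e-08, edgeR), and Nr2e1 was lower (-0.70, SE 0.13, with -1.01 in R1 and -0.45 in R2). Pax6, the eye field gene, had 44 UMIs in the members of R1 and 11 in those of R2 (1.67, SE 0.42, adjusted p = 0.016), but a single cell held 21 of the 44 and the 5 highest cells 90.9% of those in R2. Without the 5 highest cells of each group Pax6 was at 0.0558 and 0.0286 in R1 and at 0.00361 and 0.0160 in R2, so its direction then differed between the mice.

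None of the genes tested passed on the lists of phagocytosis (10 genes), fatty acid oxidation and ketogenesis (16), glutathione metabolism (16), circadian clock (13), complement (6), MHC and interferon response (13), serpins (4) and the dissociation response (9). With 2.35% of all genes called, lists this short often hold no call, so this does not show that they are unchanged. Of the 13 other settings, Dbp of the clock list was called lower under 4, and Bst2 of the MHC list and Jun of the dissociation list under 3 each. The log2 fold change of Jun ranged from -0.81 to -0.10 over them. No other adrenomedullin or calcitonin receptor gene had enough UMIs to be tested, and of the serotonin genes 3 were tested and none called. Upk1b, a tetraspanin partner of the uroplakins, was called. It had 33 UMIs in members and 20 in the much larger sum of other kept cells of R1, and 36 and 25 in R2. The level was 0.115 against 0.00968 and 0.130 against 0.0108, a log2 fold change of 3.59 (SE 0.47, adjusted p = 5.3e-07, edgeR). The UMIs came from 24 and 21 members.

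By size of change among genes at a level of at least 0.5 in both mice, the 15 largest increases were led by Pmel, Trpm1 and Aplp1. Aplp1, a relative of the amyloid precursor protein gene App, was at 2.05 and 0.639 in R1 and at 1.65 and 0.762 in R2 (1.42, SE 0.09, adjusted p = 1.6e-15, edgeR). Prss23, a serine protease gene, was at 1.11 and 0.489, and 0.952 and 0.468 (1.13, SE 0.10), and Slc7a5, an amino acid transporter gene, at 1.96 and 0.987, and 1.06 and 0.668 (0.86, SE 0.09). Dbndd2, Car10, Klhdc8a, Adamtsl4 and the aldolase gene Aldoc rose by 0.83 to 0.99. The 15 largest decreases beside the Id genes, Ccnd2 and Fbln5 included Rab37, a small GTPase gene, at 0.314 and 0.957, and 0.667 and 1.06 (-1.05, SE 0.13, adjusted p = 6.3e-08, edgeR), and Pdlim2, Nr2e1, Cdhr1, Ddit4, Phactr3, Jam3, Mest, Tmsb4x and Cdc34 between -0.46 and -0.79. Cdc34 was called under 5 of the 13 other settings, and Phactr3 had a log2 ratio of -0.88 in R1 and -0.23 in R2. Dock8, singled out after its values were seen, had 0 UMIs in the members of both mice against 56 and 56 in other kept cells. Set against 3 counts over the members of both mice, it was at least 4.81-fold lower, for counting error only.

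**Figure D4:**
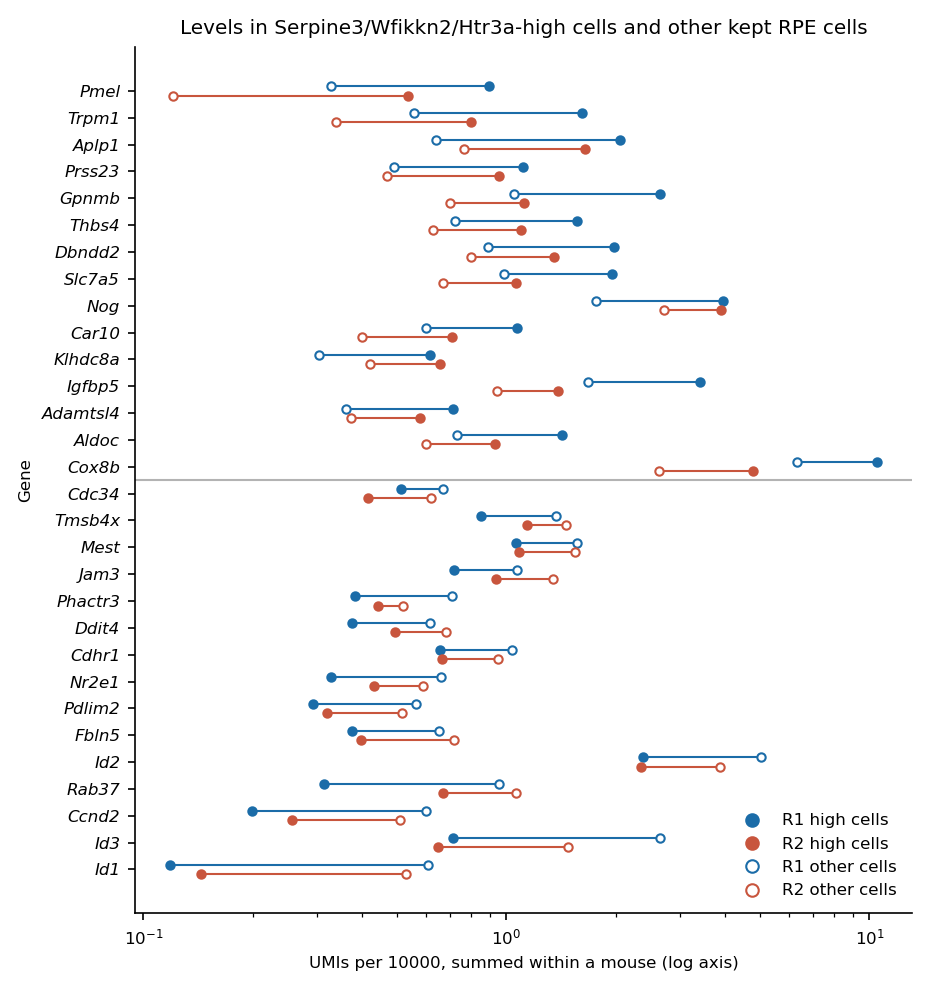
Levels (UMIs per 10000 of the sums, log axis) of the 15 genes with the largest increase (upper) and the 15 with the largest decrease (lower) by the naming rule, in Serpine3/Wfikkn2/Htr3a-high cells (filled) and other kept cells (open) of R1 (blue) and R2 (red), joined by lines. The naming rule required the same direction in both mice, and Cox8b, Gpnmb and Igfbp5 show that the mice also differed from each other.

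The members were also split by whether they held a Serpine3 UMI. In R1, 113 members had a Serpine3 UMI and 196 did not, and in R2 113 and 154. Id3 was at 0.569 with and 0.796 without in R1 and at 0.635 and 0.660 in R2, and Id1 at 0.0933 and 0.134, and 0.115 and 0.167, all below other kept cells. Aplp1 was at 2.67 and 1.68, and 2.09 and 1.31. Trpm1 was at 1.90 and 1.44 in R1 but at 1.29 and 0.423 in R2, where members without Serpine3 lay near other kept cells. Other genes did not follow this order in R2, with Pmel at 0.470 with and 0.590 without, Dct at 7.64 and 7.85, Mlana at 1.70 and 1.82 and Id2 at 2.43 and 2.28. Upk1b was at 0.280 and 0.0167, and 0.173 and 0.0961. These splits use a score gene and are given as description.

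A second comparison set the members against the Igfbp2/Sostdc1/Sfrp5-high cells, chosen by the mirrored rule, 309 cells of R1 and 267 of R2. It shares the members' sums with the main comparison, and the Igfbp2-high cells are part of the other kept cells. Their median was 10729 UMIs in R1 and 13539 in R2, above the 8614 and 9149 of members. Of 9597 genes tested, 382 were called (3.98%), 224 higher (2.33%) and 158 lower (1.65%) in members. Id1 was at 0.118 in members and 0.692 in Igfbp2-high cells of R1 and at 0.144 and 0.698 in R2 (log2 fold change -2.39, SE 0.19, adjusted p = 6.1e-26, edgeR). Id3 was at 0.711 and 2.74, and 0.649 and 1.53 (-1.60, SE 0.11), and Id2 at 2.37 and 4.81, and 2.34 and 3.57 (-0.80, SE 0.08). Nog was at 3.94 and 1.41, and 3.89 and 2.63 (1.02, SE 0.08).

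Of 14 melanogenesis genes tested there, 8 were called higher and none lower. Pmel was at 0.893 and 0.141 in R1 and at 0.537 and 0.0891 in R2 (2.65, SE 0.20, adjusted p = 1.0e-29, edgeR), and Trpm1 at 1.61 and 0.330, and 0.800 and 0.331 (1.83, SE 0.14). Rab27a, a melanosome transport gene, was the member of that list called here and not in the main comparison. Cox8b was at 10.5 and 3.76, and 4.77 and 1.66 (1.51, SE 0.07), Aplp1 had a log2 fold change of 1.51 and Dbndd2 of 1.25, while Ccnd2 (-1.62), Rab37 (-1.29) and Fbln5 (-1.05) were lower. No chaperone gene of the 12 passed here. The difference between the comparisons was not tested.

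Since members were shallower, the main comparison was repeated with cells balanced over 5 bins of UMI count, in ways partly chosen after the data were seen. When other kept cells were taken so that each bin had the members' share, 226 of 10573 genes were called, 196 of them among the 268. The 3 Id genes were lower and 7 pigment genes higher there, but Rgr, Slc12a2, Cldn2, Xbp1, Cdc34, Cdkn1a, Igf2 and Rps3 were not called. When the top 15% were taken within each bin, the medians were 9992 and 10107.5 UMIs in R1 and 11487 and 11996 in R2, and 308 genes were called, with 212 shared, and again the 3 Id genes were lower and 8 pigment genes higher. The mitochondrial transcripts had smaller log2 fold changes under both. With matched shares mt-Nd1, mt-Nd2, mt-Nd4 and mt-Cytb were called at 0.15 to 0.16. With the top 15% taken within bins mt-Nd1 had a log2 fold change of 0.14 and mt-Nd4 of 0.14, both called, and mt-Nd2 of 0.12, not called (adjusted p = 0.13, edgeR), while over the 13 settings mt-Cytb ranged from 0.13 to 0.37.

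Cells with fewer than 5000 UMIs had taken no part in the main comparison or in that with Igfbp2-high cells. The same rule applied to the 596 and 1002 such cells, with a median of 3606 and 3482 UMIs in other cells, chose 87 and 131. Of 7519 genes tested, 24 were called (0.319%), of which 19 were among the 268 and had the same direction. Of the 268 genes, 244 could be tested there and 211 had the same sign. Id3 was at 0.527 and 2.34 in R1 and at 0.458 and 1.52 in R2 (-1.95, SE 0.25, adjusted p = 8.5e-11, edgeR), Id2 at 2.20 and 4.70, and 3.08 and 3.59 (-0.62, adjusted p = 0.016), and Nog at 3.75 and 1.68, and 3.06 and 2.69 (0.62, adjusted p = 0.033). Id1, with 8 and 20 UMIs in these members, was at 0.248 and 0.452, and 0.417 and 0.534, and did not pass (adjusted p = 0.81).

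Aplp1 (1.42, SE 0.20, adjusted p = 4.9e-09, edgeR), Upk1b (3.65, SE 0.83), Dbndd2 (1.07), Thbs4 (1.03), Slc7a5 (0.83), Igfbp5 (0.77) and mt-Nd1 (0.36) were also called in the shallower cells. The pigment genes were not. Pmel was at 0.744 in these members and 1.08 in other such cells of R1 and at 0.271 and 0.242 in R2, a log2 fold change of -0.28 (SE 0.34, adjusted p = 0.96, edgeR). Trpm1 (0.83, adjusted p = 0.13), Gpnmb (0.66, adjusted p = 0.12), Dct (0.30, adjusted p = 0.38), Mlana (0.21) and Tyrp1 (0.23) kept a positive value without passing. The difference between deeper and shallower cells was not tested.

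**Figure D5:**
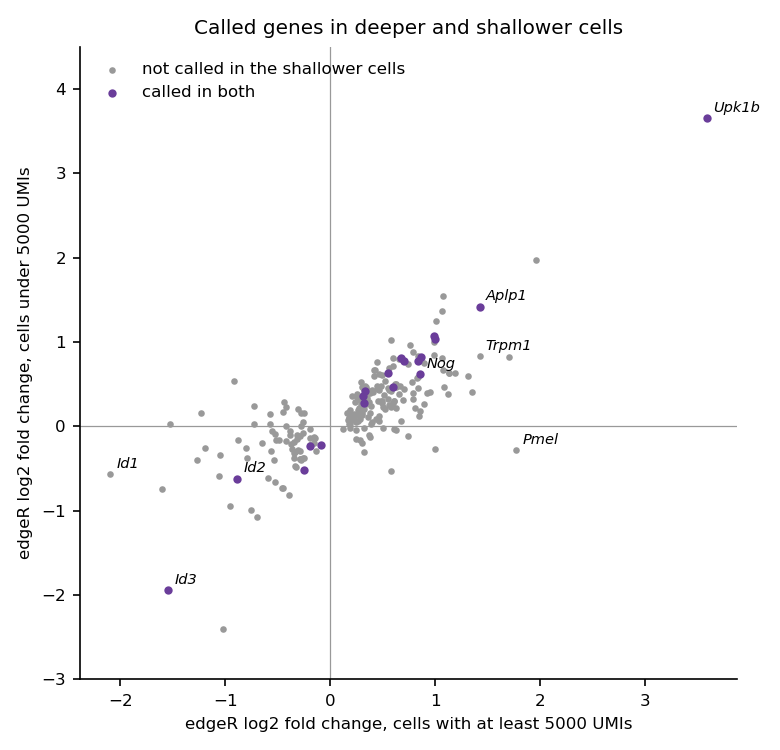
edgeR log2 fold change of the 244 called genes that could be tested in both sets of cells, in cells with at least 5000 UMIs (x axis) and in cells with fewer (y axis). The 19 purple genes, which include Id3, Id2, Nog, Aplp1 and Upk1b, were called in both, Pmel lies below 0 in the shallower cells, and Grik1, named after its values were seen, lies below the range of the y axis.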

How the data were processed

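Single RPE cells of 2 mice were measured by 10x droplet RNA sequencing. The authors used Cell Ranger with the GRCm38 genome (version 1.2.0 in the submitters' processing notes, with bcl2fastq 2.20.0.422) and deposited raw UMI counts per gene and cell over 27998 listed genes, without correction for ambient RNA or removal of doublets and poor cells. The version of the 10x chemistry differs between paper and labels. Only these counts were used, and neither ambient RNA nor doublets were removed here, except that the 4% of cells with the most UMIs were left out in an alternative.

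Members were chosen and UMIs summed per mouse with Python 3.11.15, numpy 2.4.6, pandas 2.3.3 and scipy 1.17.1, and plots were drawn with matplotlib 3.10.9. Sums held 2868068 UMIs of members and 20654508 of other kept cells in R1 and 2773723 and 23143674 in R2. They were compared in R 4.3.3 with edgeR 4.0.16 (TMM, filterByExpr, glmQLFit and glmQLFTest, false discovery rate 0.05) and, as an alternative, DESeq2 1.42.0. Both sums of a mouse come from the same animal, so the mouse was a block. Across 11398 genes, the deviations of the 2 sums of a mouse from their group means correlated with r = 0.25. The members, gene lists and tests were chosen with earlier results of these data known.

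Named genes were those with an adjusted p under 0.05, the same direction in both mice and at least 0.5 UMIs per 10000 in either group of both mice, taking the 15 largest changes each way (5 in the comparison with Igfbp2-high cells), plus up to 4 genes with the smallest adjusted p from each of 45 lists. Gm and Rik gene models were counted but not named, except where stated. The other named genes in the text are members of the lists, given as values. Tested on simulated data for the main comparison (11391 to 11404 genes), edgeR called 0 genes with none changed. At a log2 change of 0.5 it called 53 genes and recovered 52 of the 200 changed (26%). At a log2 change of 1 it called 160 genes and recovered 148 of 200 (74%), so some calls there were of unchanged genes. DESeq2 called 15 and 80 and recovered 15 and 78. How far these counts hold for the measured cells was not tested. With 2 mice, p-values rest on a spread shared across genes. Coordinates are those of GRCm38. Results of some genes are not reported here.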

Additional observations from a re-analysis of the deposited data

How the results depend on the processing

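The count of 268 genes called against other kept cells became 64 with DESeq2 (64 of them among the 268), 116 when scores were taken after thinning to 5000 UMIs (114 shared) and 24 in cells under 5000 UMIs, the last chosen after seeing the data. The count of 382 called against Igfbp2-high cells became 43 with DESeq2, 191 with the top 10% of cells and 201 with at least 8000 UMIs per cell. The mouse was paired with itself in the main design, and without the mouse as a replicate block 13 genes were called in the main comparison, the 3 Id genes among them, and 66 against Igfbp2-high cells. Under the other alternatives the main count lay between 207 and 329. In cells under 5000 UMIs the log2 fold change had the opposite sign for Pmel (-0.28), Cdhr1 (0.15), Igf2 (0.54), Slc12a2 (0.23) and Xbp1 (-0.20), none of them called there. Malat1, not called in the main comparison, was called lower when members were cut within 5 bins of UMI count (-0.084) and when depth was matched (-0.067). The causes were not tested. Leaving out either mouse leaves a ratio from 1 mouse without a test, so no count of calls could be given. Of the 73 named genes called in the main comparison, the log2 fold change moved by at least its standard error in 43 without R1 and in 42 without R2. Without R1 it was smaller than the main value by over 1.5 times for Trf (0.047), Npc2 (0.097), Degs1 (0.13), Sparc (0.14), Pdia4 (0.19), Fscn1 (0.19), Elovl1 (0.32), Dct (0.39), Nog (0.52), Igfbp5 (0.56), Gpnmb (0.68), Pax6 (0.91), Phactr3 (-0.23), Nr2e1 (-0.45) and Rab37 (-0.67). Upk1b, Cdkn1a, Pgf and Pax6, which had few UMIs in members, had standard errors of 0.38 to 0.51 on the log2 scale.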
